A study of Caenorhabditis elegans with 2 samples.

Results

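The small nucleolar RNA (snoRNA) genes of the nematode Caenorhabditis elegans, and the protein-coding genes that hold some of them in their introns, were examined for chromatin sites of the Y53F4B.3 protein. All 346 genes of biotype snoRNA among the 46926 genes of Ensembl release 115 were taken, whatever their peaks. In chromatin immunoprecipitation followed by sequencing (ChIP-seq), a protein is precipitated with the DNA near it, and regions with many reads are called as peaks. The single group was whole young adults of strain RW12270, aged 64 h and synchronised as starved larvae, in 2 biological replicates. All worms carried the allele st12270, in which CRISPR editing placed TY1, EGFP and 3xFLAG tags on Y53F4B.3 at its own locus on chromosome II, and an antibody against GFP was used. The annotation calls the gene pole-4, a name taken from a small accessory subunit of the replicative polymerase epsilon. Whole worms mix all tissues, so no cell type can be assigned to a peak, and worms without the tag, the control library and the reads were not analysed here. The read depth is unknown.

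Small nucleolar RNAs guide the chemical modification of ribosomal and spliceosomal RNA in the nucleolus: C/D types guide ribose methylation and H/ACA types guide pseudouridylation. Many are cut from the spliced-out introns of host genes, often genes for ribosomal or nucleolar proteins, and depend on the host's promoter. Others have promoters of their own and are read by RNA polymerase II or III. The B box is the internal promoter word of tRNA genes, where transcription factor TFIIIC sits before RNA polymerase III is recruited, and a run of T ends transcription by that polymerase.

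Windows before the genes' 5′ ends are shown first, because the members with a peak could be sorted by what stands there. Each run is 100 bases, 90 before the gene and its first 10, read 5′ to 3′ on the gene's strand from the RefSeq genome on WBcel235, the assembly also called ce11. Capitals mark the B box letters GTTCNANNC in the first pair, which had peaks, and in C53B7.8, which had none. F55A11.10 lies in an intron (chrV:11782902-11783001, plus strand), Y75B12B.12 is intergenic (chrV:15191084-15191183, minus strand), and C53B7.8 is on the X chromosome (chrX:6867848-6867947, plus strand).
F55A11.10: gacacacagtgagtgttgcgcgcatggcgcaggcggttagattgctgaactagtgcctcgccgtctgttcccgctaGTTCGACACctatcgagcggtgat
Y75B12B.12: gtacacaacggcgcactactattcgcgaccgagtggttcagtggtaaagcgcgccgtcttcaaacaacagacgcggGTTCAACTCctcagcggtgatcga
C53B7.8: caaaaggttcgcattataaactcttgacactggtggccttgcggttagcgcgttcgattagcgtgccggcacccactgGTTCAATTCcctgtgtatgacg

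In the next set of windows, capitals mark a second motif, called the paired element here: AAC, then any 8 bases, then TGTCNG. All these genes had peaks. ZK994.7 (chrV:8500489-8500588, plus strand), C16D9.11 (chrV:8228960-8229059, minus strand) and F54F11.6 (chrII:13521211-13521310, plus strand) lie in introns on the strand of their hosts, and T26A8.6 (chrIV:8428730-8428829, minus strand) is intergenic.
ZK994.7: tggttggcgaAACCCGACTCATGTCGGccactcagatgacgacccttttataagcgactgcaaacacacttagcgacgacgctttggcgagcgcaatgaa
C16D9.11: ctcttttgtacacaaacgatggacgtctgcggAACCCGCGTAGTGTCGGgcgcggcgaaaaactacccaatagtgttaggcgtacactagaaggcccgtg
F54F11.6: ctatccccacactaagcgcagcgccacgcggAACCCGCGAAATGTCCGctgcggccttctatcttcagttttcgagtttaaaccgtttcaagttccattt
T26A8.6: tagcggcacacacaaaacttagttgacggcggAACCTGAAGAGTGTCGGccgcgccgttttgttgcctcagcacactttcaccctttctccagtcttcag

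The last run shows one whole unit, chrII:11960808-11960979 on the plus strand: the 90 bases before W03C9.9, the gene, and 20 bases after it. Capitals mark the B box letters before the gene and the T run past its 3′ end.
W03C9.9: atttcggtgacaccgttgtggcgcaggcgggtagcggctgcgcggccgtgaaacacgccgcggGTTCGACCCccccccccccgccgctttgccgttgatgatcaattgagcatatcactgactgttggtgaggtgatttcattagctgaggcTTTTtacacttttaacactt

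Peaks lay near 47 of the 346 snoRNA genes, 13.6% of them (exact Clopper-Pearson 95% interval 10.2 to 17.7%), against 1.8% of all annotated genes. A gene was counted when the summit of a listed peak, the peak's highest position, lay in it or within 500 bp of it. Listed peaks are those in the authors' thresholded lists, which hold peaks with an irreproducible discovery rate (IDR) of 0.01 or less, a measure of how well a peak's rank repeats between data sets. The main list here, the larger set, holds 465 peaks drawn from both replicates out of 9477 ranked candidates. The share was 21% among tRNA genes, 16.7% among SL RNA genes, 11.1% among other snRNA genes and 2.16% among protein-coding genes, and leaving the piRNA genes out of all genes gave 2.58%. Intervals cover counting error only, and neighbouring genes can share a peak, so they are not independent.

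Each replicate's own list gave a smaller count. In replicate 1, 31 snoRNA genes were listed, 8.96%, against 1.2% of all genes, and in replicate 2, 28 were listed, 8.09%, against 0.806%. The conservative set, another list built from both replicates, held 50, or 14.5%, against 1.86%. It is not a subset of the larger set: 42 genes were in both, 8 in the conservative set only and 5 in the larger set only. Of the 47 genes of the larger set, 19 were listed in both replicates, 11 in replicate 1 but not in replicate 2, 5 in replicate 2 but not in replicate 1, and 12 in neither. All 47 had at least a candidate peak in both replicates' ranked lists. In the other direction, 5 genes were listed in a replicate but not in the larger set, namely T08B2.13, F25H2.15, Y53F4B.47, ZK643.9 and W03B1.17. No ranked list held any candidate near 114 of the 346 genes.

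Candidate peaks near snoRNA genes were listed more often than other candidates. A candidate lay near 131 of the 346 genes, 37.9%, against 18.9% of all genes. Of 151 candidate summits near these genes in the larger set, 47 were listed, 31.1% (23.8 to 39.2%), against 4.91% of all candidates. The share was 29 of 181, or 16%, against 1.58% in replicate 1, and 27 of 216, or 12.5%, against 0.915% in replicate 2. The 47 summits and the 47 genes do not pair one to one, since 2 pairs of genes share a summit and 2 genes have more than 1. These summits make up 10.1% of the 465. None of them lay within 500 bp of a tRNA, snRNA or SL RNA gene.

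The snoRNA genes with the strongest peaks lie inside and outside introns, and their peaks were listed in both replicates. The signal is the peak caller's value and was compared only within a list. ZK994.7, in an intron of the peroxidasin gene pxn-1, had the highest, 255 in the larger set, with 121 in replicate 1 and 136 in replicate 2. Its summit lay 13 bp before the gene. The intergenic F59C6.15 had 231, with 133 in replicate 1 and 98.5 in replicate 2, and the intergenic T19B4.8 had 208, with 131 in replicate 1 and 77.3 in replicate 2. All 3 ranked among the first 61 candidates in replicate 1 and between 123 and 204 in replicate 2.

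Next came ZK484.9, on the opposite strand in an intron of haf-9, which encodes a half-type ABC transporter, with 196 in the larger set, 103 in replicate 1 and 90.5 in replicate 2. C51F7.3, in an intron of the FERM-domain gene frm-7, and C51F7.4, which overlaps that gene in another way, share a summit with a signal of 195, so the peak cannot be given to either. The other genes of the top of the list were W03C9.9 with 178, F55A11.10 with 175, T02E1.9 with 171 and Y75B12B.12 with 154. Y23H5B.10, T03F7.8, B0334.12 and H09I01.2 followed with 152, 144, 141 and 135, each listed in both replicates. In replicate 1 the signals of these 8 genes lay between 66.8 and 116, and in replicate 2 between 51.1 and 79.9.

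**Figure D1:**
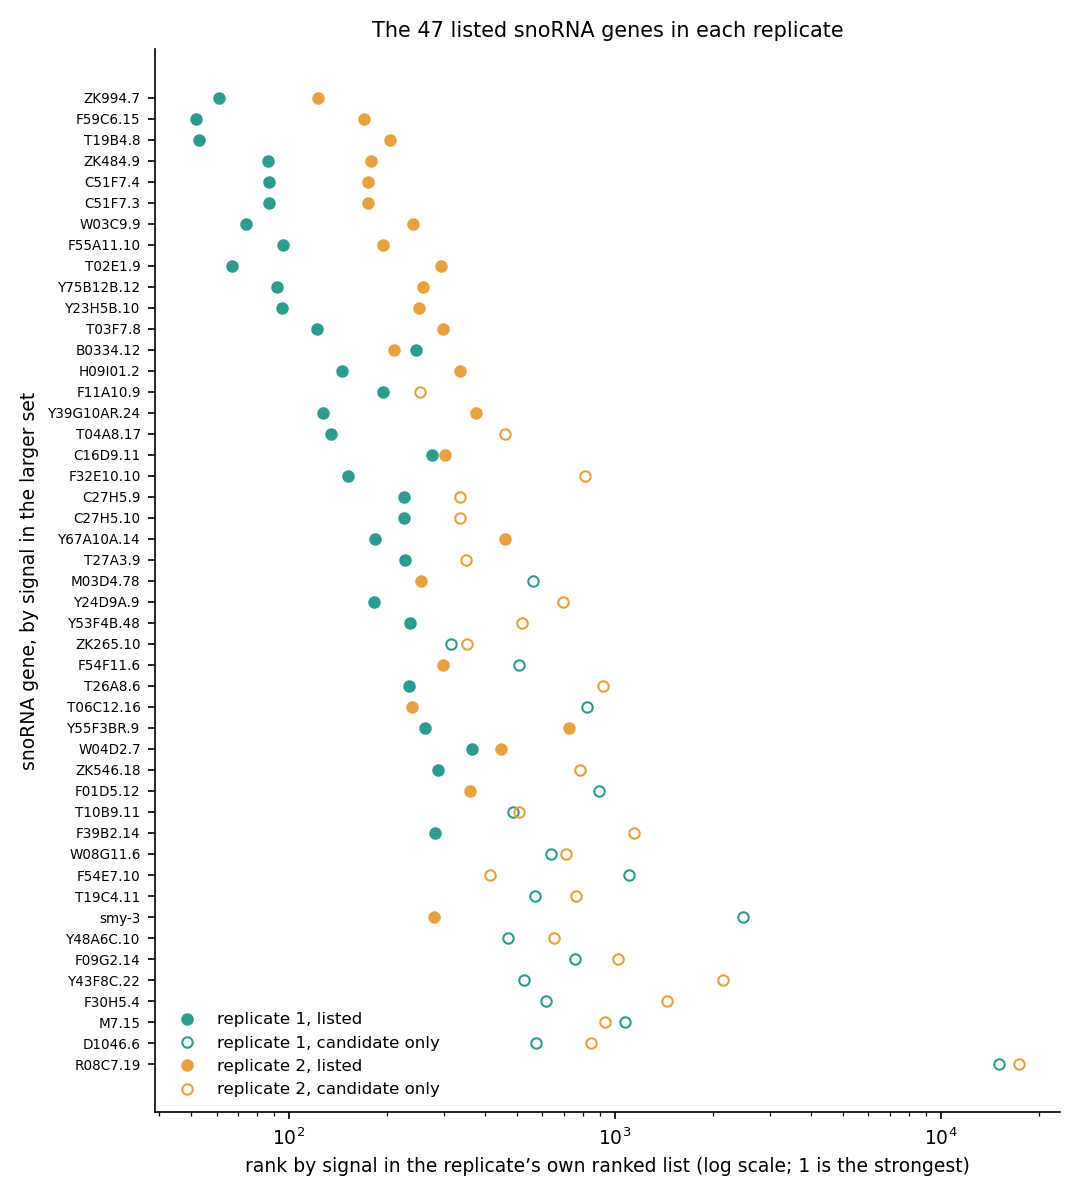
Rank of the strongest candidate peak within 500 bp of each of the 47 listed snoRNA genes in the ranked list of replicate 1 and of replicate 2 (log axis, 1 is the strongest), ordered from top to bottom by signal in the larger set. Filled points were listed in that replicate and open points were candidates only; the genes at the top are listed in both and those at the bottom in neither.

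Signal was not higher at listed snoRNA peaks than at other listed peaks by more than their spread. In the larger set the listed summits near snoRNA genes had a median signal of 107 (quartiles 86.4 and 138, n = 47), against 103 (88 and 132, n = 418) for the rest of the list. The medians were 79.6 against 69.9 in replicate 1 and 56.6 against 60.2 in replicate 2. A pair of genes rests on a weak summit that overlaps a stronger listed peak. The listed summit nearest to R08C7.19 had a signal of 6.29, rank 9215, and the overlapping peak, with a signal of 80.3, had its summit 540 bp from the gene. For D1046.6 the signals were 20.1 and 80.7, and the stronger summit lay 82 bp from the gene.

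Listed summits lay just before the snoRNA genes. Of the 47, 37 were upstream of the 5′ end, 5 inside the gene and 5 past its 3′ end, and 33 were within 100 bp upstream. The median position was 40 bp upstream (quartiles -61 and -3.5). The medians of the replicates' own lists were -30 in replicate 1 and -40 in replicate 2. The 104 candidate summits that were not listed had a median of -41.5 but spread wider, with quartiles of -159 and 106, and 30 of them were within 100 bp upstream. Listed peaks were a median of 260 bp wide, and a listed peak overlapped the gene itself in 41 members.

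**Figure D2:**
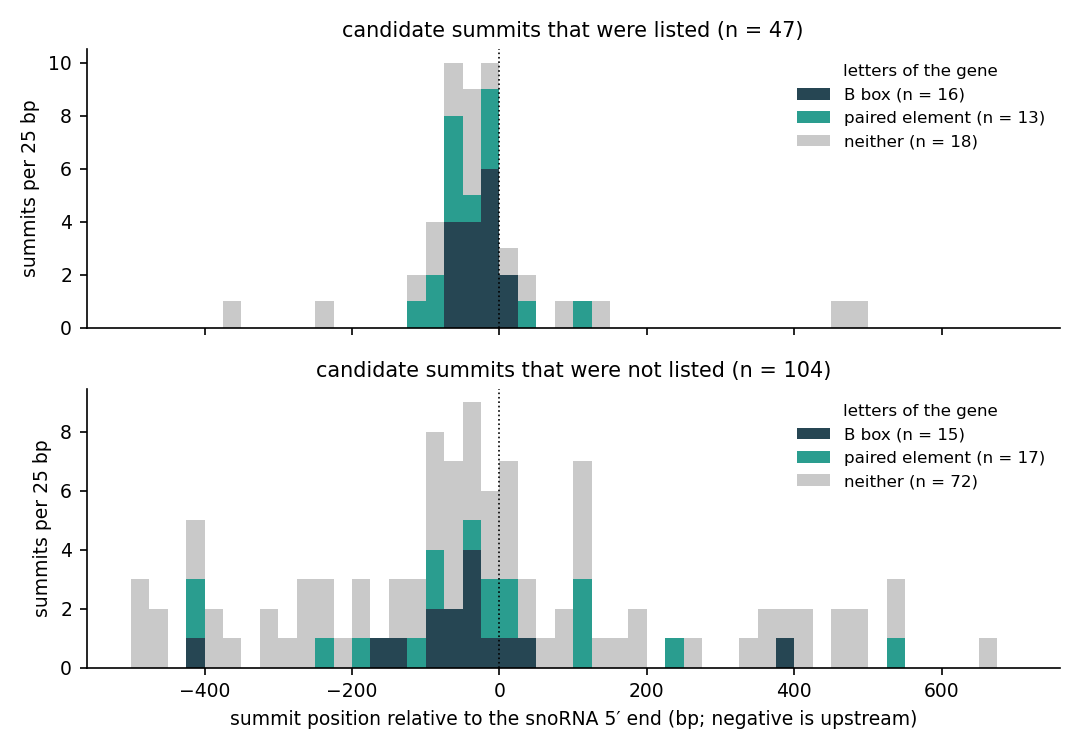
Position of candidate summits relative to the 5′ end of the nearest snoRNA gene in bp, negative upstream, in bins of 25 bp, for the 47 listed summits (top) and the 104 that were not listed (bottom), stacked by the letters in the gene's upstream window. Listed summits gather within 100 bp upstream of the 5′ end, and those that were not listed spread over the whole window.

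The B box letters and the paired element together mark most of the listed genes. Both were searched from 150 bases before the 5′ end to 10 inside, on the gene's strand. The B box letters stood before 40 of the 346 genes, 11.6%, against 2.33% of 19973 protein-coding genes, and the paired element before 37, 10.7%, against 0.265%. No gene had both. Of the genes with B box letters, 17 of 40 were listed, 42.5% (27 to 59.1%). Of those with the paired element it was 12 of 37, 32.4% (18 to 49.8%), and of the 269 with neither it was 18, 6.69% (4.01 to 10.4%). Of the 37 paired element genes 13, and of the 12 listed 5, belong to families of copies, so their interval counts copies as separate genes. The paired element was written down after the windows of the listed genes had been compared with those of the others, and the B box word was taken up at the same time, so these shares are descriptions and carry no independent weight. Without the 10 bases inside the gene, which were added after it was seen that some letters cross the 5′ end, the counts were 16 of 35, 12 of 37 and 19 of 274.

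**Figure D3:**
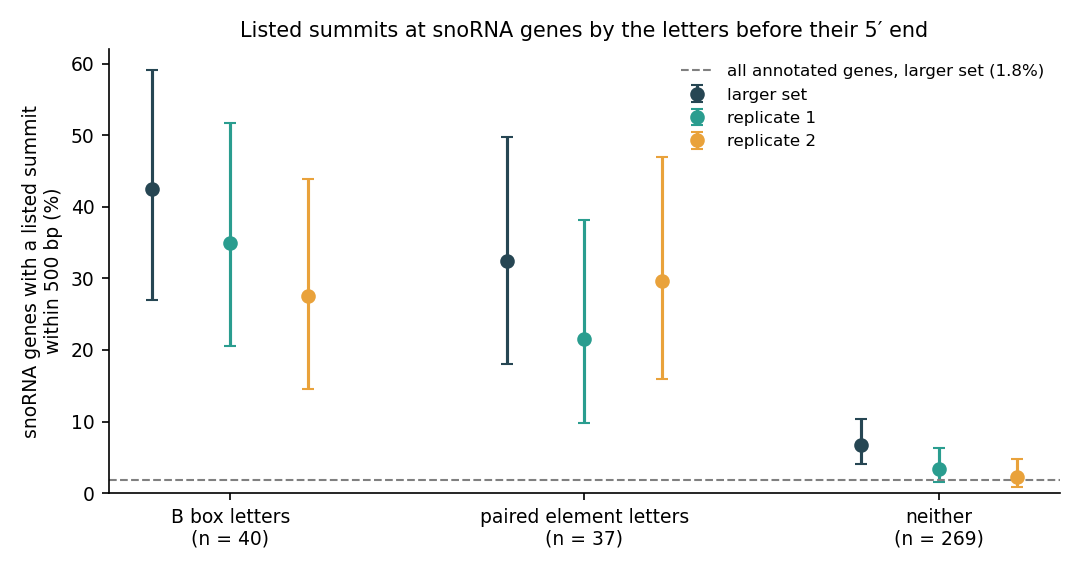
Share of snoRNA genes with a listed summit within 500 bp (%) by the letters in the window before the gene, in the larger set and in each replicate's own list, with exact 95% binomial intervals; the dashed line is the share of all annotated genes in the larger set. In all 3 lists the B box and paired element genes have higher shares than the genes with neither, and the letters were chosen with the listed genes in view.

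In the replicates' own lists, 14 of the 40 B box genes were listed in replicate 1 and 11 in replicate 2. The paired element gave the opposite order, with 8 of 37 listed in replicate 1 and 11 in replicate 2. Genes with neither numbered 9 of 269 in replicate 1 and 6 in replicate 2, which is 3.35% and 2.23%, against 1.2% and 0.806% of all genes. Of the 19 genes listed in the larger set and in both replicates, 10 had B box letters, 6 had the paired element and 3 had neither. Of the 18 listed genes with neither, 11 had their summit within 500 bp of a protein-coding start site, against 3 of the 29 with either, so for those 11 the snoRNA gene and the neighbouring start site cannot be told apart.

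The words stood at different distances from the gene. Where a window held a word more than once, the copy nearest the gene was measured. The first base of the B box letters lay a median of 14 bases before the gene, and in 33 of 40 genes it lay 5 to 27 bases before it. The paired element began a median of 59 bases before the gene, and in 28 of 37 genes 54 to 66 bases before it. Neither range was set in advance, so both are descriptions. Listed summits stood a median of 16 bases upstream of the first B box base (n = 17) and 19 bases downstream of the first base of the paired element (n = 12). Listed summits of B box genes had a median signal of 139 (n = 16), and those of paired element genes 99.4 (n = 13). The summits of genes with neither had 105 (n = 18).

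The same words occur elsewhere among short RNA genes. The B box letters were inside 95.9% of 612 nuclear tRNA genes, as their internal promoter, and in the upstream window of 33.3% of 30 SL RNA genes. Upstream shares were lower for miRNA genes, 4.98%, the 99 other snRNA genes, 4.04%, and tRNA genes, 2.45%, against 2.33% of protein-coding genes. The paired element was in the upstream window of 30% of SL RNA genes, 24.2% of other snRNA genes, 1.15% of 261 miRNA genes and 0.163% of tRNA genes. On the opposite strand of the same snoRNA windows, the B box letters occurred in 1.73% and the paired element in 0.578%. Reading the printed windows led to a search for the A box, the other internal promoter word of tRNA genes, with the letters TGGC, any 2 bases, AG, any 2 bases and GG. It stood before 12 snoRNA genes, 3.47%, against 0.0501% of protein-coding genes. Of the 12, 6 were listed, against 13.6% of all snoRNA genes. These letters were chosen after windows of listed genes had been read. The A box counts here and below therefore carry no independent weight.

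In 7 snoRNA genes the A box letters were followed by the B box letters, 43 to 52 bases further on. These are Y39G10AR.24, T10B9.11, W03C9.9, F32E10.10 and F55A11.10, which were listed, and T08B2.13 and R166.7, which were not in the larger set. T08B2.13 was among the genes listed in a replicate. The arrangement can be read in the windows of F55A11.10 and W03C9.9 printed above, where the A box letters stand in lower case before the capitals.

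Listed snoRNA genes were shorter and more often followed by a run of T. Their median length was 91 bases (range 62 to 344), against 131 (54 to 328) for the 299 that were not listed. The gap was widest among B box genes, with medians of 76 listed and 126 not listed, against 106 and 113 among paired element genes and 128 and 133 among genes with neither. A run of 4 T occurred within 20 bases past the 3′ end in 33 of 47 listed genes, 70.2%, against 112 of the others, 37.5%. Among B box genes it was 15 of 17 listed and 19 of 23 not listed, and among paired element genes 8 of 12 listed and 12 of 25 not listed. Genes with neither set of letters had it in 10 of 18 listed and 81 of 251 not listed. No test was run on these shares.

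The listed share also varied with location. Of the 346 genes, 150 lie in introns of protein-coding genes on the host's strand, 28 in introns on the opposite strand, 124 are intergenic, and 44 overlap protein-coding genes in other ways. Listed were 15 of the 150 same-strand genes, 10% (5.71 to 16%), and 9 of the 28 opposite-strand genes, 32.1% (15.9 to 52.4%). Of the intergenic genes 19 were listed, 15.3% (9.48 to 22.9%), and of the others 4, 9.09% (2.53 to 21.7%). The intervals of these 4 classes overlap in part, and in replicate 2 the opposite-strand count was 4 of 28, against 7 in replicate 1.

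**Figure D4:**
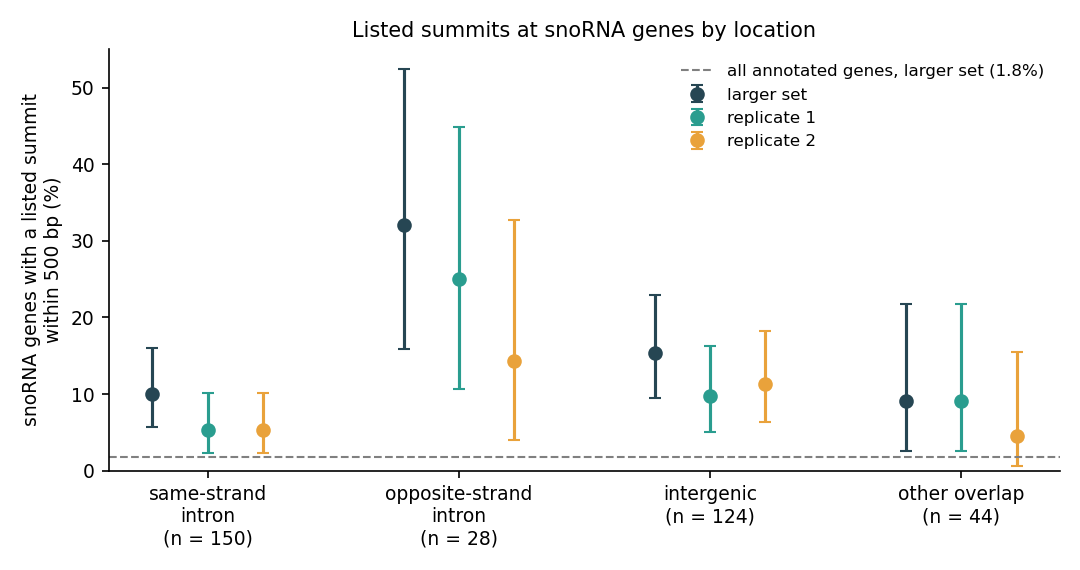
Share of snoRNA genes with a listed summit within 500 bp (%) by location relative to protein-coding genes, in the larger set and in each replicate's own list, with exact 95% binomial intervals; the dashed line is the share of all annotated genes in the larger set. Opposite-strand intronic genes have the highest share in the larger set, 32.1%, with the widest interval, and same-strand intronic genes have 10%.

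Within the same-strand introns most listed genes were those with the letters, which were chosen with the listed genes in view. Of 31 same-strand genes with either set of letters, 11 were listed, 35.5% (19.2 to 54.6%), and of 119 without, 4 were listed, 3.36% (0.923 to 8.38%). The intergenic genes divided likewise, with 12 of 31, 38.7% (21.8 to 57.8%), and 7 of 93, 7.53% (3.08 to 14.9%). The opposite-strand genes had 4 of 12 with the letters and 5 of 16 without, and the counts were 3 and 4 in replicate 1 and 3 and 1 in replicate 2. Among same-strand genes without the letters, 1 of 119 was listed in replicate 1 and 0 of 119 in replicate 2, a count that still allows up to 2.52% by the 3-count limit and 3.05% by the exact interval. The summits of 3 of the 4 in the larger set lay within 500 bp of a start site of the host.

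**Figure D5:**
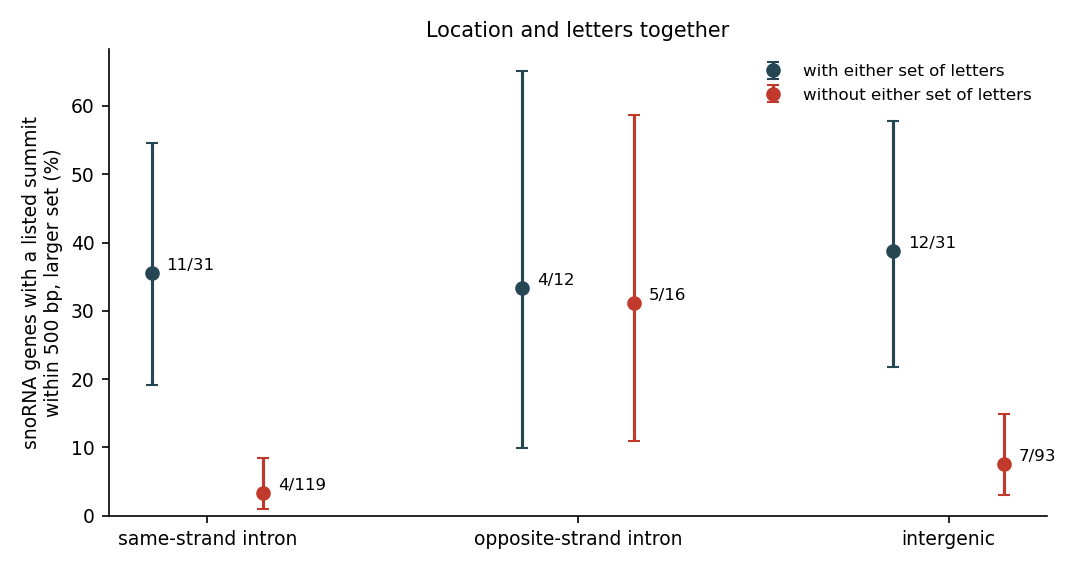
Share of snoRNA genes with a listed summit within 500 bp in the larger set (%) for genes with (left) and without (right) either set of letters, by location, with exact 95% binomial intervals; the fractions give listed over all genes. Same-strand intronic and intergenic members have higher shares with the letters than without, and opposite-strand ones have 4 of 12 and 5 of 16 in this set. The letters were chosen with the listed genes in view.

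The opposite-strand genes cannot be made from the spliced-out intron of their host, which is read from the other strand. After ZK484.9 the strongest were T03F7.8 in cutl-18, a cuticlin-like gene, with a signal of 144, B0334.12 in the potassium channel gene twk-5 with 141, and T04A8.17 in ppat-1 with 130. T04A8.17 had 82.9 in replicate 1, where it was listed, and a candidate of 43.5 in replicate 2, where it was not. C27H5.9 and C27H5.10, both in pdl-1, share a summit with a signal of 119 that lies 1 bp from the first, 340 bp from the second and 278 bp from a start site of pdl-1. Of the 9 listed opposite-strand genes, 4 were listed in both replicates, and 3 had their summit within 500 bp of a start site of the host.

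The hosts themselves were mostly without a listed summit at their start sites. The 178 intronic genes lie in 158 hosts, of which 141 hold 1 snoRNA gene. A listed summit lay within 500 bp of a start site of 13 hosts, 8.23%, against 1.1% of all protein-coding genes. Among the 13 were pxn-1, which holds ZK994.7, and F55A11.6, which holds F55A11.10. For 7 of the 24 listed intronic genes, the listed summit near the snoRNA gene was also within 500 bp of a start site of the host.

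A listed member was found in 3 of the 17 hosts that hold 2 or more snoRNA genes, 17.6%, and in 20 of the 141 that hold 1, 14.2%. By gene it was 4 of 38, 10.5% (2.94 to 24.8%), against 20 of 141, 14.2% (8.88 to 21.1%), and the intervals overlap. The nucleolar protein gene nol-56, whose product is a core C/D protein, holds 4, and the larger set had no candidate near any of them. The ribosomal protein gene rpl-6 holds 3, all with a candidate and none listed, and the topoisomerase gene top-2 holds 3 with no candidate in that set. The ribosomal protein genes rpl-7A and rps-12 hold 2 each, with 1 listed in each, and pdl-1 holds the 2 listed opposite-strand genes that share a summit. Over the 13 ribosomal protein hosts, 2 of 19 snoRNA genes were listed, 10.5% (1.3 to 33.1%), against 22 of the 159 other intronic genes, 13.8% (8.88 to 20.2%). The listed pair are Y24D9A.9 in rpl-7A, whose summit lay 370 bp before it and 88 bp from a host start site, and F54E7.10 in rps-12, whose summit lay 232 bp before it and 152 bp from one. Y24D9A.9 was listed in replicate 1 and F54E7.10 in neither replicate. The other ribosomal protein hosts with members not listed were rpl-2, rpl-4, rpl-7, rpl-15, rpl-24.1, rpl-26, rps-4, rps-13, rps-23 and rps-29. Of these, only rpl-15 and rps-23 had a listed summit within 500 bp of a start site, as rpl-7A and rps-12 did.

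A list of 12 genes held those for proteins of snoRNA particles and their assembly, and the nucleolar size regulator ncl-1. Of the 12, 2 had a listed summit within 500 bp of a start site, against 1.1% of all protein-coding genes, and 7 had a candidate there, against 13.9%. The methyltransferase gene fib-1 had one 51 bp from its start site, with a signal of 88, which was listed in replicate 1 at 80 bp but not in replicate 2. Leaving piRNA genes aside, the other gene within 500 bp of that summit is mut-15. The C/D core gene nol-58 had one at 371 bp with a signal of 88.9, in neither replicate's list, and zip-4 lies in reach of it too. The start sites of the C/D genes nol-56 and M28.5 (SNU13) had none, nor did those of the H/ACA genes K01G5.5 (dyskerin), Y66H1A.4 (GAR1), nola-3 (NOP10) and Y48A6B.3 (NHP2). Those of dao-5 (NOPP140), ncl-1, which limits nucleolar size, and the assembly factors ruvb-1 and ruvb-2 had none either. The nearest to passing was the candidate at ruvb-1, with an IDR of 0.0448.

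By chromosome, listed were 14 of 55 snoRNA genes on V, 25.5% (14.7 to 39%), against 1.51% of all genes there, and 11 of 59 on IV, 18.6% (9.69 to 30.9%), against 0.944%. On II it was 9 of 71, 12.7% against 2.31%, on I 9 of 74, 12.2% against 3.28%, and on III 4 of 54, 7.41% against 3.14%. The share of all genes on IV was taken over 19704 annotated genes, against 7870 on V, the next largest count. The piRNA genes were not left out by chromosome, so the shares of all genes cannot be compared between chromosomes. The order of IV and V was not stable, with 20.3% on IV and 20% on V in the conservative set, and replicate 1 gave 14.5% on V, 12.2% on I and 11.9% on IV. No test was run between chromosomes. On X 0 of 33 were listed, a count that still allows up to 9.09% by the 3-count limit and 10.6% by the exact interval, and the count was 0 in each of the 4 thresholded lists. Other genes on X were listed: the chromosome holds 14.8% of the 465 peaks of the larger set, 2.67% of its 6022 annotated genes were listed, and 70 of its 276 tRNA genes were. Only 5 of the 33 snoRNA genes on X had a candidate, and 3 had B box letters, such as C53B7.8.

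Some snoRNA genes are copies of each other. By shared words of 20 bases, 21 genes fell into 8 families, and 5 of these 21 were listed. All 5 have the paired element, as do 13 of the 21. The family of F59C6.15 has 5 members with 3 listed, F59C6.15 itself, Y67A10A.14 with a signal of 119 and T19C4.11 with 85.6, and F25H2.15 was listed in a replicate but not in the larger set. How reads were placed among copies is not known here, and copies are not independent members. At 42 of the 47 listed genes none of the words of 24 bases around the summit occurs 5 or more times in the genome.

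The strongest candidates that were not listed in the larger set follow. An intergenic gene on IV with the paired element, given here by its identifier WBGene00220185, had a signal of 93.3 and an IDR of 0.163 in the larger set. In replicate 2 its candidate had an IDR of 0.000477, under the limit, and was left out of the thresholded list all the same. W01C9.6, which overlaps glb-27, had 92 and an IDR of 0.687 in the larger set. The conservative set did list it, with a signal of 92 and an IDR of 0.00204. ZK643.9 had 87.9 with an IDR of 0.0103, just above the limit of 0.01, and was listed in replicate 2. M163.14 on X had 87.1 and 0.0225, and C05D2.15, in the intron of madf-11, had 86.6 and 0.0122. Among these candidates of the larger set, the lowest IDR therefore did not go with the highest signal. At the edge of the window, the farthest gene inside was M7.15, 382 bp from its summit, and the nearest outside was C06A1.9 in cdc-48.1, 508 bp from a summit with a signal of 250, followed by K11H12.13 in rpl-15 at 553 bp with 190. Both cdc-48.1 and rpl-15 have a listed summit within 500 bp of a start site.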

How the data were processed

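The 8 peak lists, a ranked and a thresholded one for each replicate, the larger set and the conservative set, are on assembly ce11, per the labels and the file headers. The signal value is a score given by the authors' peak caller, and a second deposited score is the IDR, capped at 1000. The ranked lists hold the -log10 of the IDR as deposited, capped at 5. The sources used here do not give the aligner or the peak caller, and depth is unknown. The thresholded larger set leaves out 149 candidates with an IDR of 0.01 or less, none near a snoRNA gene, with signals up to 5424. The conservative set leaves out 102 and replicate 2 leaves out 154, with 1 near a snoRNA gene in each.

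Distances ran from the summit to the nearest base of the gene, and genes were placed with Ensembl release 115. Shares have exact Clopper-Pearson 95% intervals, and no p-value was computed. Scoring was tested on simulated data, where all 20 runs recovered every summit planted within 500 bp of a gene and none planted farther away. Only snoRNA genes far from other snoRNA genes were used, so shared summits were not tested. The members, lists and letters were chosen with earlier results of these data known. Words of the windows of listed and other genes were compared before the letters were written down. Named are the 10 strongest members, those listed in both replicates, the strongest by location, hosts with most members, ribosomal protein hosts, 12 particle and nucleolar genes, the strongest members not listed and those at the window's edge. Other genes were named after their values were seen. Python 3.11.15, numpy 2.4.6, pandas 2.3.3, scipy 1.17.1 and matplotlib 3.10.9 were used.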

Additional observations from a re-analysis of the deposited data

How the results depend on the processing

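Of 127 values recomputed under 14 other settings, 99 stayed within 1.5 times the reported count or within the spread of the value. Only the median position could be scored as turned round, and it stayed upstream. The order of classes was not scored, and some orders changed. Intronic and intergenic shares of 13.5% and 15.3% became 15.2% and 14.5% in the conservative set. B box and paired element shares of 42.5% and 32.4% became 27.5% and 29.7% in the list of replicate 2. With an IDR of 0.001 or less, 28 of the 346 genes were listed instead of 47, 13 intronic, 11 intergenic, 8 same-strand and 5 opposite-strand, 7 with the paired element (12 before), 8 with neither set of letters (18 before), 18.5% of the candidates near these genes were listed, and the median signal was 134. Windows of 200 and 1000 bp gave 42 and 54 genes and listed shares of candidates of 39.1% and 25%, and overlap of peak and gene gave 41.6%. Leaving out a replicate, so that 1 replicate's own lists were used, gave 28 to 31 genes, 12 to 15 intronic, 12 to 14 intergenic, 8 same-strand in either, and 4 to 7 opposite-strand, listed shares of 12.5 to 16% and median positions of -40 to -30. Leaving out summits near protein-coding start sites gave 33 genes, of which 15 had B box letters, 11 the paired element and 7 neither (18 before). Summits with a repeat share of 0, a setting chosen after the data were seen, gave 42 genes and 7 with the paired element (12 before). No paired analysis was possible because there is only 1 group. Depth is unknown, so a member without a listed peak may be one that the sequencing could not show.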
